A study of Mus musculus with 42 samples.

Results

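The 8 genes described here are Adipoq, Cfd, Car3, Plin1, Cidec, Retn, Scd1 and Fabp4, a set of genes with high expression in fat cells, and they were read in mouse lung. The members were the rows of the deposited gene table whose gene name is one of these symbols, which gave 8 of 54532 genes. All 8 passed the filter of a mean of at least 0.5 FPKM, which 16962 genes passed, through their mean over all libraries. FPKM is the number of fragments per length of the gene, scaled to make libraries comparable, here not by their total reads. It allows levels of different genes to be compared per length.

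RNA was sequenced from lungs of WT C57BL/6J mice kept under 12 h of light, with lights on at clock hour 8 (ZT0) and off at clock hour 20 (ZT12), in a study of sleep deficiency. The SD groups stayed in SD cages for 20 h a day, from clock hour 14 to clock hour 10, over 2 days. The Ctrl groups stayed in home cages. Lungs were taken every 4 h over 24 h starting at clock hour 8, giving 7 times from ZT0 to ZT24 and 14 groups of 3 libraries. The labels name no allele, agent or age beyond these. Each library is labelled as a biological replicate, but whether it holds tissue of 1 animal or of several is not said, so p-values measure the spread between these libraries, which may be partly technical. Depth ran from 25285525 to 29790252 reads a library, as recovered from the FPKM steps. Sftpc, the surfactant protein gene that marks alveolar type 2 cells, read at least 14810 FPKM in every library, so the tissue label matched its defining marker.

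Fat cells store triglyceride in lipid droplets and release hormones into the blood. Perilipin 1 (Plin1) coats the droplet and controls the access of lipases, and Cidec lets droplets fuse into larger ones. Scd1 puts a double bond into saturated fatty acids, and Fabp4 carries fatty acids in the cytosol. Adiponectin (Adipoq), adipsin (Cfd, the complement factor D protease) and resistin (Retn) are secreted. Car3 is a carbonic anhydrase abundant in fat cells and also in skeletal muscle. Not every member is limited to fat: Scd1 is a lipogenic gene of alveolar type 2 cells, and Fabp4 is also made by capillary endothelium and macrophages. Adipoq and Plin1 are the members most closely tied to the adipocyte.

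Promoters are shown because the windows let the genes that moved together be compared letter by letter. The RefSeq promoter table of build GRCm38.p6 held 6 start sites for 5 of the 8 members, Adipoq, Cfd, Retn, Plin1 and Cidec. Each line gives the 250 bases before the start, read 5′ to 3′ on the gene's strand, and capitals mark matches to the C/EBP motif TTNNGCAA on either strand.
Adipoq, chr16:23146286-23146535, plus strand: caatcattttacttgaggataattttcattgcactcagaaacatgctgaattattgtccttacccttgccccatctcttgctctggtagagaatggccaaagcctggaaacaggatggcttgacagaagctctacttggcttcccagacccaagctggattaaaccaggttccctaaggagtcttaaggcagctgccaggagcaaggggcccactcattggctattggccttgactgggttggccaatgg
Cfd, chr10:79890603-79890852, plus strand: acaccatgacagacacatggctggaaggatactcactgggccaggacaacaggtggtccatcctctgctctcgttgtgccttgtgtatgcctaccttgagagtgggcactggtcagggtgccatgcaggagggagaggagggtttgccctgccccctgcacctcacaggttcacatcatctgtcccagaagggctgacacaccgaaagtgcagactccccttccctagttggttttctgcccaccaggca
Retn, chr8:3655520-3655769, plus strand: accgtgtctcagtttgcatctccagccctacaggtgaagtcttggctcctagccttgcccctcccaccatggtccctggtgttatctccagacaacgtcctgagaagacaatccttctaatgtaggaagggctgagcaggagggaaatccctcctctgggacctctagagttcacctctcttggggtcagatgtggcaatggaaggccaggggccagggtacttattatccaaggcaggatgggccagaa
Plin1, chr7:79732777-79733026, minus strand: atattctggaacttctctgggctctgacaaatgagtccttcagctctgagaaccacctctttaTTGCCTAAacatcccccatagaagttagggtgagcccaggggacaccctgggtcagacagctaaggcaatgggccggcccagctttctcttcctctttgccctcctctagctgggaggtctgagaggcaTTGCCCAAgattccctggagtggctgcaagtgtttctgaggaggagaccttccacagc
Cidec, upstream start, chr6:113435761-113436010, minus strand: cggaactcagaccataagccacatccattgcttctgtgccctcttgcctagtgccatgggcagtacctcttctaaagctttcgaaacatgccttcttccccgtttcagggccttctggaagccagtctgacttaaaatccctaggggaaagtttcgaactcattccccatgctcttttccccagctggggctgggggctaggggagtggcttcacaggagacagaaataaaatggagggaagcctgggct
Cidec, downstream start, chr6:113434765-113435014, minus strand: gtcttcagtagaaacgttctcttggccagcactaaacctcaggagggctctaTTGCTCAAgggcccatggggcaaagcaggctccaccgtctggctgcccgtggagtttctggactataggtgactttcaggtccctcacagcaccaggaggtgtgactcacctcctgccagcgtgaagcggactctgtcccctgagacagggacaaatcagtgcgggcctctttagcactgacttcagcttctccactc

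The C/EBP motif stood at 2 places in the Plin1 window and at 1 in the window of the downstream Cidec start. It is found in 9.56% of the 32851 windows of the table. The other motifs searched were the TATA box TATAAA (12.4% of all windows), the E-box CACGTG (6.02%), the PPAR direct repeat of AGGTCA with 1 base between the copies (0.0335%) and the glucocorticoid element (0.00913%). All were read on both strands, and none of these 4 had a match in the 6 windows. Adipoq, Cfd and Retn, which moved with Plin1 across the groups, therefore had no match of any of the 5 motifs within these windows.

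The members differed widely in level per length. Scd1 was the most abundant, with a mean of 319.9 FPKM over the 42 libraries, followed by Cfd with 32.0. Cidec averaged 8.34 FPKM, Fabp4 6.76 and Car3 5.94. Adipoq averaged 2.07 FPKM, Retn 1.27 and Plin1 0.652. The low values rest on few reads: a library held from 1 to 321 reads of Adipoq, from 6 to 176 of Retn and from 10 to 276 of Plin1, against at least 15258 of Scd1. The FPKM of Fabp4 is divided by a gene length of 4489 bases, which equals its whole span on chromosome 3 because a non-coding transcript covers it, while its coding transcript has 896 bases, so its level per messenger is understated against the other members. To a lesser degree the same holds for Car3 (2865 bases against 1679 in its longest coding transcript), Plin1 (4649 against 2817) and Retn (1579 against 1139).

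Groups differed far more than the libraries within them. Between 97.4% and 99.9% of the variance of each member lay between the 14 groups. On the log2(FPKM + 1) scale the SD of the 14 group means was 1.45 for Cfd, 1.22 for Car3 and 0.931 for Adipoq, against a median of 0.177 over all genes tested, and 0.554%, 0.89% and 1.46% of genes had a larger SD. The smallest SD among the members was that of Cidec, 0.47, which 7.39% of genes exceeded. In bulk RNA, fewer fat cells, less RNA of these genes per cell and a different make-up of the tissue taken cannot be told apart.

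Adipoq, which encodes the hormone adiponectin (ENSMUSG00000022878, chromosome 16, bases 23146536 to 23158028 on the plus strand of mm10), was highest in Ctrl at ZT8, where the 3 libraries read 6.51, 7.83 and 6.34 FPKM. At ZT8 in SD they read 4.46, 5.38 and 5.10 FPKM. Adipoq was lowest in SD at ZT20, where they read 0.0308, 0.191 and 0.263 FPKM. The group means of the extremes, 6.89 ± 0.82 (SD, n = 3) and 0.162 ± 0.12, differed 42.7-fold. In descending order of the mean, the groups were Ctrl ZT8, SD ZT8, Ctrl ZT4, Ctrl ZT24, Ctrl ZT12, SD ZT4, SD ZT0, Ctrl ZT0, Ctrl ZT16, SD ZT24, Ctrl ZT20, SD ZT16, SD ZT12 and SD ZT20. Neighbours overlapped in their libraries except between Ctrl ZT8 and SD ZT8, between Ctrl ZT24 and Ctrl ZT12, and between SD ZT4 and SD ZT0.

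Cfd, the gene of adipsin (ENSMUSG00000061780, chromosome 10, bases 79890853 to 79892655, plus strand), separated the groups more sharply. Its means were 102 ± 1.1 FPKM (SD, n = 3) in Ctrl ZT8, 83.2 ± 1.5 in SD ZT8 and 72.9 ± 4.9 in Ctrl ZT24. The remaining 11 groups lay at or below 34.4 FPKM, and SD ZT20 was lowest with 3.74 ± 0.40. The same 3 groups were highest for Car3, with 19.5 ± 0.42, 15.0 ± 0.91 and 15.6 ± 1.1 FPKM, against 5.87 in the next group and 0.515 ± 0.048 in SD ZT20. Plin1 reached 2.01 ± 0.056, 1.78 ± 0.26 and 1.56 ± 0.16 FPKM in them, and 0.124 ± 0.059 in SD ZT24, its lowest group. Retn reached 2.82 ± 0.48, 2.82 ± 0.65 and 3.63 ± 0.30 FPKM, the last being its highest group. For these 4 genes no other group's libraries overlapped with those of the 3 groups.

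**Figure D1:**
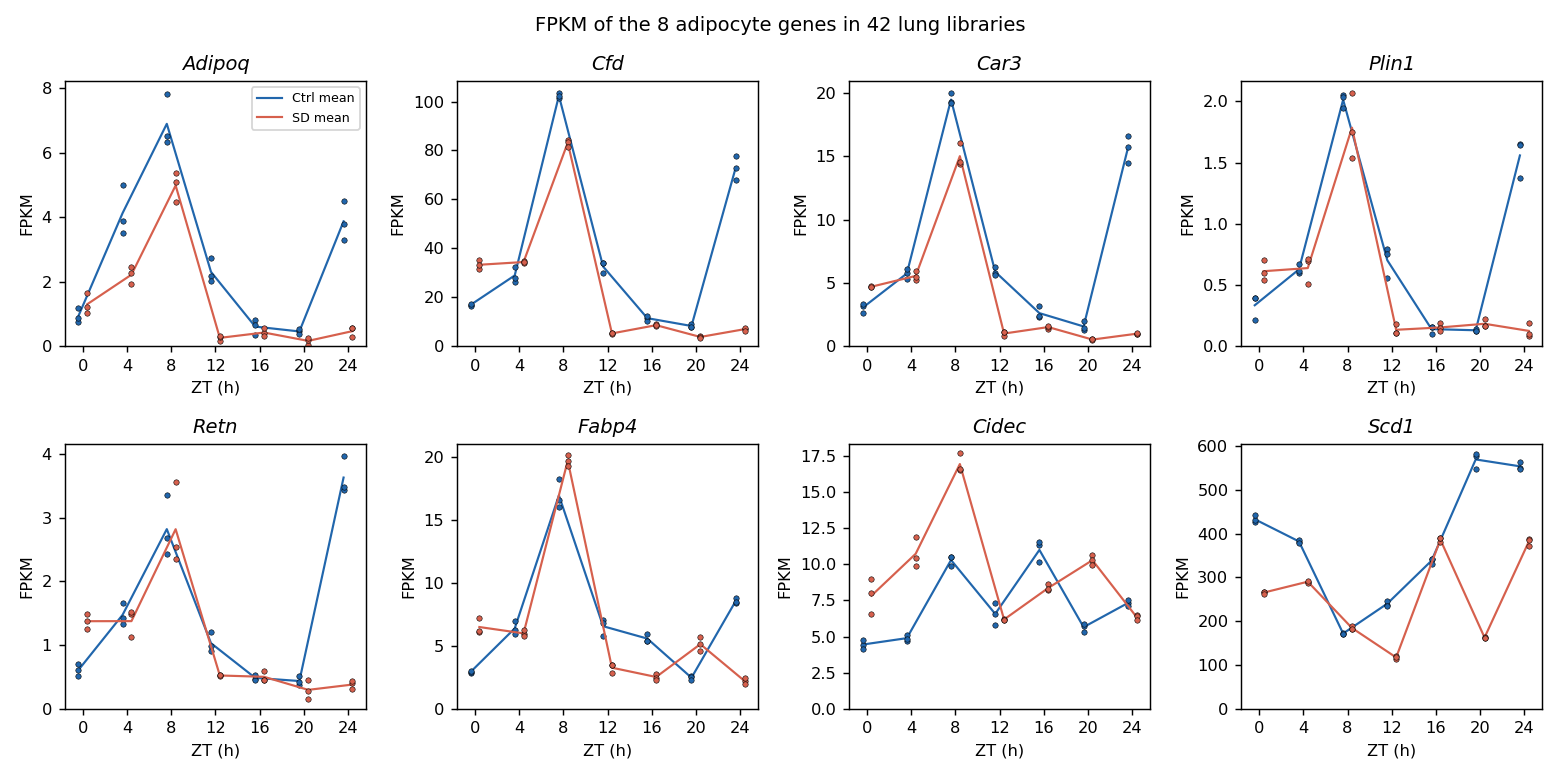
FPKM of each member (vertical axis, linear, starting at 0) against time in h (horizontal axis), with 1 point per library and lines through the means of 3 libraries, Ctrl in blue and SD in red. Adipoq, Cfd, Car3, Plin1 and Retn peak at ZT8 in both conditions and again at ZT24 in Ctrl, where SD stays low, while Scd1 peaks at ZT20 in Ctrl with 570 FPKM.

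Fabp4 (ENSMUSG00000062515, chromosome 3, bases 10204088 to 10208576, minus strand) shared the ZT8 peak, with 20.1, 19.6 and 19.3 FPKM in SD and 16, 18.2 and 16.6 in Ctrl. After ZT8 its highest group was again Ctrl ZT24, with 8.54 ± 0.20 FPKM (SD, n = 3). Its lowest group was SD ZT24, with 2.24, 2.41 and 1.98 FPKM. Cidec (ENSMUSG00000030278, chromosome 6, minus strand) had a narrower range, from 4.44 ± 0.30 FPKM in Ctrl ZT0 to 16.9 ± 0.64 in SD ZT8, which is 3.81-fold. Unlike the genes above, its second highest group mean was Ctrl ZT16, with 11 ± 0.75 FPKM, a time at which Adipoq read 0.605 ± 0.24. The Cidec libraries of Ctrl ZT16 overlapped with those of SD ZT4 and Ctrl ZT8, with means of 10.7 and 10.3 FPKM, so this second place was not separated.

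Scd1 (ENSMUSG00000037071, chromosome 19, bases 44394451 to 44407709, minus strand) took another course. In Ctrl it fell from 433 ± 8.3 FPKM (SD, n = 3) at ZT0 to 172 ± 1.1 at ZT8, its lowest Ctrl mean and the time of the highest Ctrl means of Adipoq, Cfd, Car3, Plin1 and Fabp4, and then climbed to 570 ± 19 at ZT20 and 554 ± 8.7 at ZT24. In SD its lowest mean, 117 ± 2.8 FPKM, came at ZT12, and it read 386 ± 5.6 at ZT16, 163 ± 1.2 at ZT20 and 382 ± 8.0 at ZT24. A cosine with a 24 h period took up 89.8% of the variance of the 7 Ctrl means of Scd1 and 26.0% of that of the 7 SD means. For Adipoq those shares were 80.6% and 69.7%, and for the other 6 members they lay between 21.7% and 64.1%.

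A set of 5 members rose and fell together over the 14 group means, as read on the log2(FPKM + 1) scale. Pearson's r between Adipoq, Cfd, Car3, Plin1 and Retn ranged from 0.923 to 0.990 over their 10 pairs, and from 0.881 to 0.989 without the 2 groups farthest from the median of either gene of the pair. Cfd and Car3 were the closest pair, and the ratio of their group means in FPKM stayed between 4.39 and 7.25 while Cfd itself spanned 27.4-fold. Fabp4 correlated with these 5 genes at r from 0.839 to 0.909, and at 0.730 to 0.886 without the 2 groups farthest for the other gene. Cidec did so at 0.278 to 0.425, and at -0.191 to 0.424 without them. Scd1 did so at -0.160 to 0.014, and at -0.186 to 0.357 without them. Without Ctrl ZT8 and SD ZT8, the groups farthest for Adipoq, the sign of r with Adipoq turned for both, to -0.191 for Cidec and 0.357 for Scd1. Without SD ZT12 and SD ZT20, the groups farthest for Scd1 itself, its r with the 5 genes ran from -0.584 (Cfd) to -0.404 (Retn). Without their own 2 farthest groups, r with the 5 genes ran from 0.729 to 0.791 for Fabp4 and from 0.006 to 0.161 for Cidec. These are descriptions over 14 means that come from the same 42 libraries and share each library's depth and tissue, and the grouping of 5 genes was made after their values were seen.

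**Figure D2:**
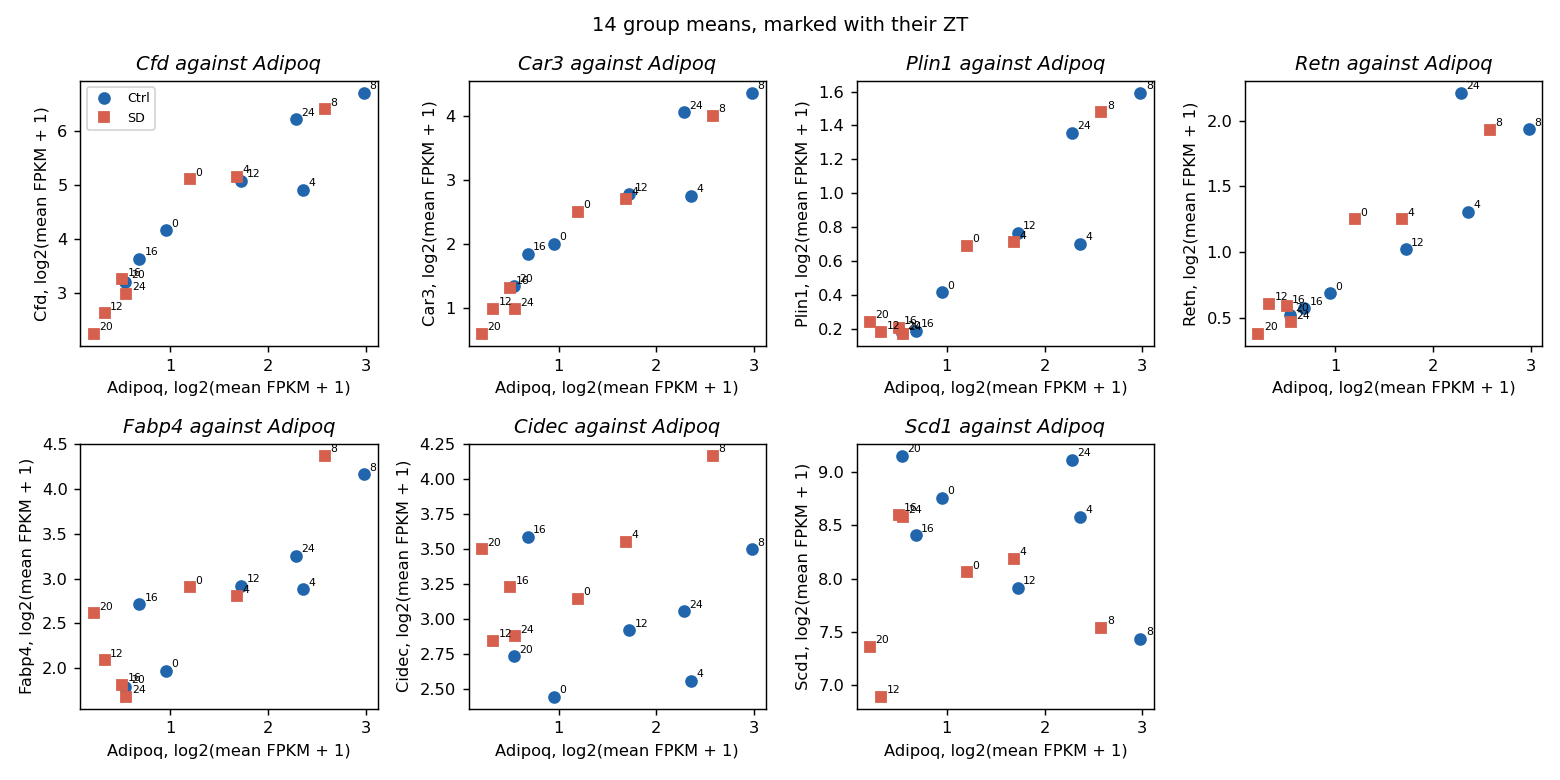
Group means of 7 members (vertical axes, log2(mean FPKM + 1)) against that of Adipoq (horizontal axes, same scale), 1 point per group, marked with its time in h, Ctrl as blue circles and SD as red squares. Cfd, Car3, Plin1 and Retn lie along 1 rising line (r with Adipoq from 0.923 to 0.959), Cidec (0.278) and Scd1 (-0.048) do not, and the sign of both turns without Ctrl ZT8 and SD ZT8. Without SD ZT12 and SD ZT20, the groups farthest for Scd1, its r with Adipoq is -0.552.

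The question the design poses is whether SD cages changed these genes over the day. It was tested with limma on log2(FPKM + 1) with 1 mean per group, Benjamini-Hochberg adjustment over 16962 genes and a threshold of 0.05. Differences below are SD minus Ctrl on that scale, which understates the change of genes near 1 FPKM. Each condition and time is 1 group, so an effect of the cages cannot be told apart from other differences between groups, such as the tissue taken. At 1 clock hour, the Ctrl groups alone differed from ZT0 to ZT24 by a member median of 1.31. Averaged over the 7 times, all 8 members passed: Cidec was higher, by 0.36 ± 0.03 (SE), and the other 7 were lower. The largest differences were those of Cfd, -0.87 ± 0.03, Car3, -0.86 ± 0.03, and Adipoq, -0.63 ± 0.05, with adjusted p of 1.18e-23, 2.09e-21 and 1.6e-13 in limma. Scd1 followed with -0.60, Retn with -0.26, Plin1 with -0.22 and Fabp4 with -0.20. The background is wide: 34.6% of all genes tested were called higher and 35.3% lower in this comparison, so a call alone says little. The median difference was -0.43 over the 8 members and near 0 (-0.0033) over all genes.

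The averaged differences rest on few times. Without ZT24, 5 of the 8 members were called, and Plin1 (-0.06), Retn (-0.01) and Fabp4 (0.03) were not. Without both ZT8 and ZT24, an alternative added after the data were seen, the count was also 5. With ZT0, ZT4 and ZT20 alone, Fabp4 (0.56) and Plin1 (0.12) were called higher in SD, and Cfd (0.076) and Retn (0.12) were positive without passing. With the 7 differences of group means as the units, none was called, with adjusted p in limma from 0.0846 for Adipoq to 0.662 for Fabp4, while 2875 genes were called in all. The differences varied with time for all 8 members by limma's F test over the 7 times, as they did for 81.7% of genes.

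At ZT0, 6 members were higher in SD, 1 was lower and Adipoq was not called, against 18% and 19.7% of all genes. Cfd read 31.4, 35.1 and 33.2 FPKM in SD and 16.7, 16.6 and 17.2 in Ctrl, so the groups did not overlap. Fabp4 read 6.49 ± 0.64 FPKM (SD, n = 3) in SD and 2.92 ± 0.10 in Ctrl. The log2 differences were 0.94 ± 0.07 (SE) and 0.93 ± 0.07. Adipoq differed by 0.25 ± 0.13, with an adjusted p of 0.124 in limma. Scd1 was the member that was lower, with 265 ± 3.5 against 433 ± 8.3 FPKM.

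At ZT4, 2 members were higher and 2 lower, against 19.2% and 20.1% of all genes. Cidec was higher by 0.99 ± 0.07 (SE) and Cfd by 0.25 ± 0.07, while Adipoq (-0.67 ± 0.13) and Scd1 (-0.40 ± 0.03) were lower. The Cfd call was lost without replicate 1 of Ctrl ZT4 (0.18, adjusted p 0.0670 in limma). At ZT8, the highest time of Adipoq, Cfd, Car3, Plin1 and Fabp4 in both conditions, 3 members were higher and 3 lower, against 27.1% and 28.9%. Cidec (0.67), Fabp4 (0.21) and Scd1 (0.10) were higher, and Adipoq (-0.40), Car3 (-0.36) and Cfd (-0.30) were lower. Several of these calls turned on 1 library: Adipoq was not called without replicate 2 of Ctrl ZT8, which read 7.83 FPKM (adjusted p 0.0579), and Fabp4 was not called without replicate 1 or 3 of Ctrl ZT8 or replicate 1 of SD ZT8 (adjusted p 0.0896, 0.0532 and 0.0561, all in limma). Plin1, not called at ZT8, was called lower without replicate 2 of SD ZT8 (-0.19, adjusted p 0.0317 in limma). With libraries scaled to equal reads, Scd1 and Fabp4 lost their calls at ZT8 (adjusted p 0.963 and 0.194 in limma) and Plin1 gained one.

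At ZT12, where lights went off, 7 members were lower in SD and none was higher, against 24.4% of genes in each direction. Cfd read 5.50, 4.87 and 5.18 FPKM in SD and 33.8, 33.8 and 30.0 in Ctrl, a log2 difference of -2.44 ± 0.07 (SE, adjusted p 1.99e-23 in limma). Adipoq read 0.157, 0.291 and 0.317 in SD and 2.17, 2.01 and 2.72 in Ctrl, a difference of -1.39 ± 0.13 (adjusted p 4.81e-11). No library of either gene lay within the other condition's range. Car3 (-1.79), Scd1 (-1.03), Fabp4 (-0.83), Plin1 (-0.58) and Retn (-0.41) were also lower. Cidec differed by -0.07 ± 0.07, with an adjusted p of 0.438 in limma.

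At ZT16, 4 members were lower (Fabp4 -0.90, Car3 -0.52, Cfd -0.38, Cidec -0.36) and Scd1 was higher (0.19), against 27.1% and 29.1% of all genes. At ZT20, 4 were lower and 2 higher, against 28.4% and 33%. Scd1 had its largest difference there, -1.80 ± 0.03 (SE), with 164, 162 and 162 FPKM in SD against 579, 548 and 582 in Ctrl. Cfd (-0.96), Car3 (-0.74) and Adipoq (-0.33) were lower too, while Fabp4 (0.82) and Cidec (0.76) were higher. The Adipoq call at ZT20 was lost without replicate 1 or 3 of Ctrl ZT20 or replicate 1 of SD ZT20 (adjusted p 0.0507, 0.0856 and 0.135 in limma), and Retn was called lower without replicate 1 of SD ZT20 (-0.24, adjusted p 0.0474). Scaling to equal reads moved the median of all genes at ZT20 from 0.02 to -0.14.

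At ZT24 all 8 members were lower in SD, against 22.3% of genes lower and 24.4% higher. The Cfd libraries read 7, 7.59 and 6.15 FPKM in SD and 68.1, 77.9 and 72.8 in Ctrl, a log2 difference of -3.23 ± 0.07 (SE, adjusted p 1.42e-26 in limma). Car3 read 0.946, 0.986 and 1 in SD and 16.6, 15.8 and 14.5 in Ctrl, a difference of -3.07 ± 0.09 (adjusted p 7.4e-24). Every SD library lay below every Ctrl library. Adipoq fell from 3.30, 3.79 and 4.51 FPKM in Ctrl to 0.571, 0.547 and 0.272 in SD, -1.73 ± 0.13 (adjusted p 5.25e-13 in limma). Retn (-1.75), Fabp4 (-1.57), Plin1 (-1.19) and Scd1 (-0.54) differed likewise. Cidec had the smallest difference, -0.18 ± 0.07, with an adjusted p of 0.0394 in limma. That call was lost without replicate 1 or 3 of Ctrl ZT24 or without any 1 replicate of SD ZT24 (adjusted p 0.0581 to 0.114 in limma). The median difference was -1.65 over the members and 0.01 over all genes.

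**Figure D3:**
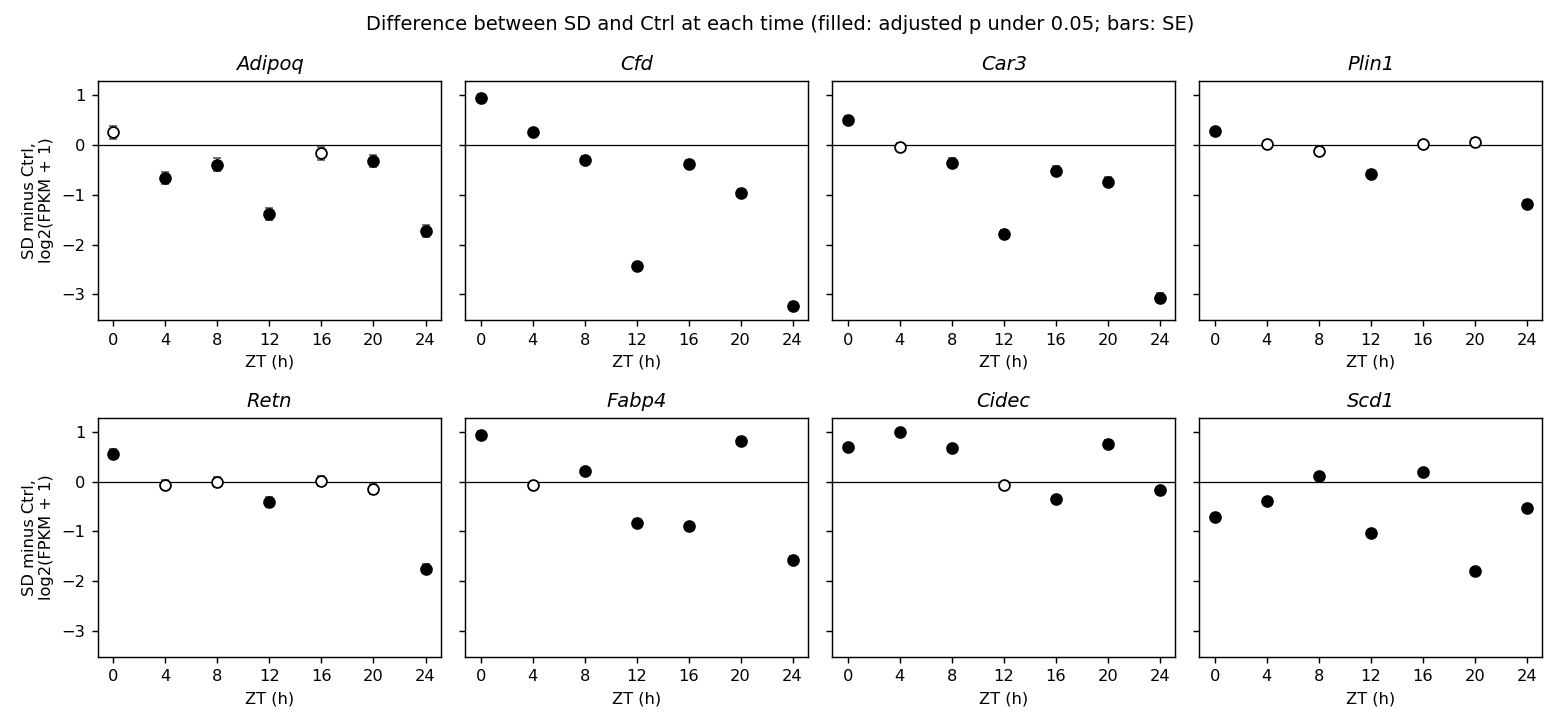
SD minus Ctrl difference of each member (vertical axis, log2(FPKM + 1)) at each time in h (horizontal axis), with bars for the SE and filled points where the adjusted p in limma was under 0.05. Cfd and Car3 have their 2 lowest points at ZT12 and ZT24, Scd1 at ZT12 and ZT20, and Cidec lies above 0 at ZT0, ZT4, ZT8 and ZT20.

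ZT0 and ZT24 are the same clock hour on successive days. The labels do not say how either collection lay against the hours in the cages, so in SD they may differ in time spent in or out of the cages as well as in day, and these cannot be told apart. In Ctrl all 8 members were higher at ZT24 than at ZT0, against 6.94% of genes higher and 5.97% lower. Cfd rose from 16.8 ± 0.30 to 72.9 ± 4.9 FPKM (SD, n = 3), Car3 from 3.03 ± 0.37 to 15.6 ± 1.1 and Adipoq from 0.932 ± 0.22 to 3.87 ± 0.61. The median log2 difference of the members was 1.31. In SD the order was the opposite: 7 members were lower at ZT24 and Scd1 was higher, against 18.2% and 20.4% of genes, and Cfd fell from 33.3 ± 1.8 to 6.92 ± 0.72 FPKM. The Cidec call in SD was lost without replicate 2 of SD ZT0 (adjusted p 0.0700 in limma). The difference between these day-to-day differences, a test added after the data were seen, was negative for 7 members and positive for Scd1, against 15.5% and 16.8% of genes, and was largest for Cfd, -4.17 ± 0.10 (SE, adjusted p 2.33e-25 in limma). All 8 members also differed among the 7 times within Ctrl and within SD by limma's F test, as 78.7% and 80.8% of genes did.

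Other adipocyte genes divided. Of 24 listed, 21 passed the filter, and at ZT24 in SD 11 were lower, 6 higher and 4 not called, against 22.3% of all genes lower and 24.4% higher. Over the 7 times 13 were higher and 7 lower, against 34.6% and 35.3% of all genes. Their median r with Adipoq was 0.243. The listed genes most like Adipoq over the 14 group means were Mrap, a receptor accessory protein (r = 0.884), Thrsp, a regulator of lipogenesis (0.876), and Gpd1, which makes glycerol phosphate (0.820). Thrsp was highest in Ctrl ZT24, with 8.84 FPKM, and lowest in SD ZT20, with 1.33. Values were negative for the lipases and the adipogenic factor Pparg, among others, and lowest for Dgat1 (-0.442) and Cebpa (-0.350). Pnpla2, the first lipase of triglyceride breakdown, correlated with Adipoq at -0.215 and was highest in SD ZT20, with 189 FPKM. Lpl had an r of -0.316, Lipe of -0.109 and Pparg of -0.216. Lep, the leptin gene, was under the filter, with a mean of 0.0364 FPKM, and its highest group mean was 0.198 in Ctrl ZT24.

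Brown fat markers were read from a list of 16 genes, of which 9 passed the filter, and at ZT24 5 of them were lower in SD and none higher, against 22.3% and 24.4% of all genes. Their r with Adipoq ran from -0.522 to 0.913, with a median of 0.709. Ucp1, the uncoupling protein of brown fat, read 2.41, 2.68 and 1.95 FPKM in Ctrl ZT8 and at most 0.246 in every other library, SD ZT8 included. Cidea, a droplet protein of brown fat, was also highest in Ctrl ZT8, with 4.09 FPKM. Adipoq in Ctrl ZT24 and SD ZT8 was high with Ucp1 near 0. Zic1, a marker of classical brown fat, had a mean of 0.000166 FPKM. Cox8b and Cox7a1, respiratory chain subunits of brown fat and of muscle, followed Adipoq at r of 0.913 and 0.901.

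Most of the close relatives named here took other courses. The resistin relatives Retnla and Retnlg were far more abundant than Retn, with means of 217 and 72.3 FPKM. Retnla was highest in Ctrl ZT12 (626 FPKM) and Retnlg in SD ZT20 (228 FPKM), groups in which Retn read 1.03 and 0.297 FPKM. Scd2, a paralog of Scd1, averaged 134 FPKM and peaked in SD ZT16 with 191 FPKM. Fabp5, which carries fatty acids in many cell types, had its highest mean, 39.5 FPKM, in Ctrl ZT16. Fabp3, the fatty acid carrier of heart muscle, was closer to Adipoq, with r = 0.862. Plin2, the droplet coat of most tissues, stayed between 26.5 and 43.5 FPKM. The authors' counting of reads shared by such relatives is not given in the sources used here, so a share of reads passed between them cannot be separated. Of the adiponectin receptors, Adipor1 averaged 42.9 FPKM and Adipor2 28.5, and T-cadherin (Cdh13) 2.36. Of 12 fatty acid synthesis genes, 5 were higher and 6 lower in SD over the 7 times, where 34.6% of all genes were higher and 35.3% lower. Their r with Scd1 ran from -0.293 to 0.744 (median 0.347), and was highest for Acly (0.744), Srebf1 (0.712) and Fasn (0.680).

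The genes most like each member over the 14 group means, by Pearson's r among genes with an SD of those means of at least 0.5, are named next. For Adipoq they were Smpx (r = 0.913), a small muscle protein, Calml3, Cox8b, Cox7a1 and Fndc5. For Cfd they were Fndc5, Smpx, Csrp3, Eef1a2 and Casq2, and for Car3 Smpx (0.943), Fndc5, Casq2, Csrp3 and Thrsp. Casq2 and Csrp3 are genes of cardiac muscle, and Pln, which follows, regulates its calcium pump. Plin1 was most like the keratin gene Krt15 (0.919), Fndc5, Smpx, Pln and Krt5, Retn like Thrsp (0.912), Casq2, Smpx, Cox8b and Fndc5, and Fabp4 like Pln (0.936), Myoz2, Hspb7, Krt15 and Tcap. The highest values for Cidec and Scd1 were lower than for the other members. Cidec was led by Clca3a1 (0.732), with Rn7sk, Hspb7, Pmaip1 and Ucp2, and Scd1 by Spon2 (0.815), with Ppp1r3c, Gja5, Cpa3 and Rflna.

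Markers of some other tissues moved with the adipocyte genes over the groups, though not at every time. Heart muscle in the mouse extends along the pulmonary veins. The summed level of 11 cardiac muscle genes ran from 37.8 FPKM in SD ZT20 to 308 in Ctrl ZT8, and 10 of 10 tested genes were lower in SD at ZT24, against 22.3% of all genes, and higher in Ctrl at ZT24 than at ZT0, against 6.94%. Their r with Adipoq ran from 0.719 to 0.873, and the atrial peptide gene Nppa was at 0 in SD ZT20. The summed level of 8 mucous airway genes ran from 98.1 FPKM in SD ZT16 to 6903 in Ctrl ZT8, with r from 0.521 to 0.843, and all 8 were lower in SD at ZT24, against the same 22.3%. The plasma cell list was highest in Ctrl ZT16, with a sum of 1758 FPKM, a group with low Adipoq. The sum of mesothelial genes, of cells that line the lung surface, was highest in SD ZT24, with 308 FPKM, and their r ran from -0.244 to -0.039. Krt19 had the highest mean of them, 119 FPKM, and was itself highest in SD ZT20. Msln, Upk1b, Upk3b, Lrrn4 and Wt1 were highest in SD ZT24. Capillary endothelial and alveolar type 2 genes had median r of -0.249 and -0.315. Of 11 skeletal muscle genes 4 passed the filter, with r from 0.075 to 0.876 (median 0.681). The highest values were those of the troponin gene Tnnt3 (0.876), with 6.08 FPKM in its highest group, SD ZT8, and of the creatine kinase gene Ckm (0.835), with 2.34 FPKM in Ctrl ZT8. The sum of the 11 genes ran from 4.32 FPKM in SD ZT16 to 12.4 in SD ZT8, and the fast myosin gene Myh4 was listed at 0 in all libraries. At ZT24, 2 of the 4 tested genes were lower in SD and none was higher, against 22.3% and 24.4% of all genes. The part of these tissues in the differences of the members was not tested.

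**Figure D4:**
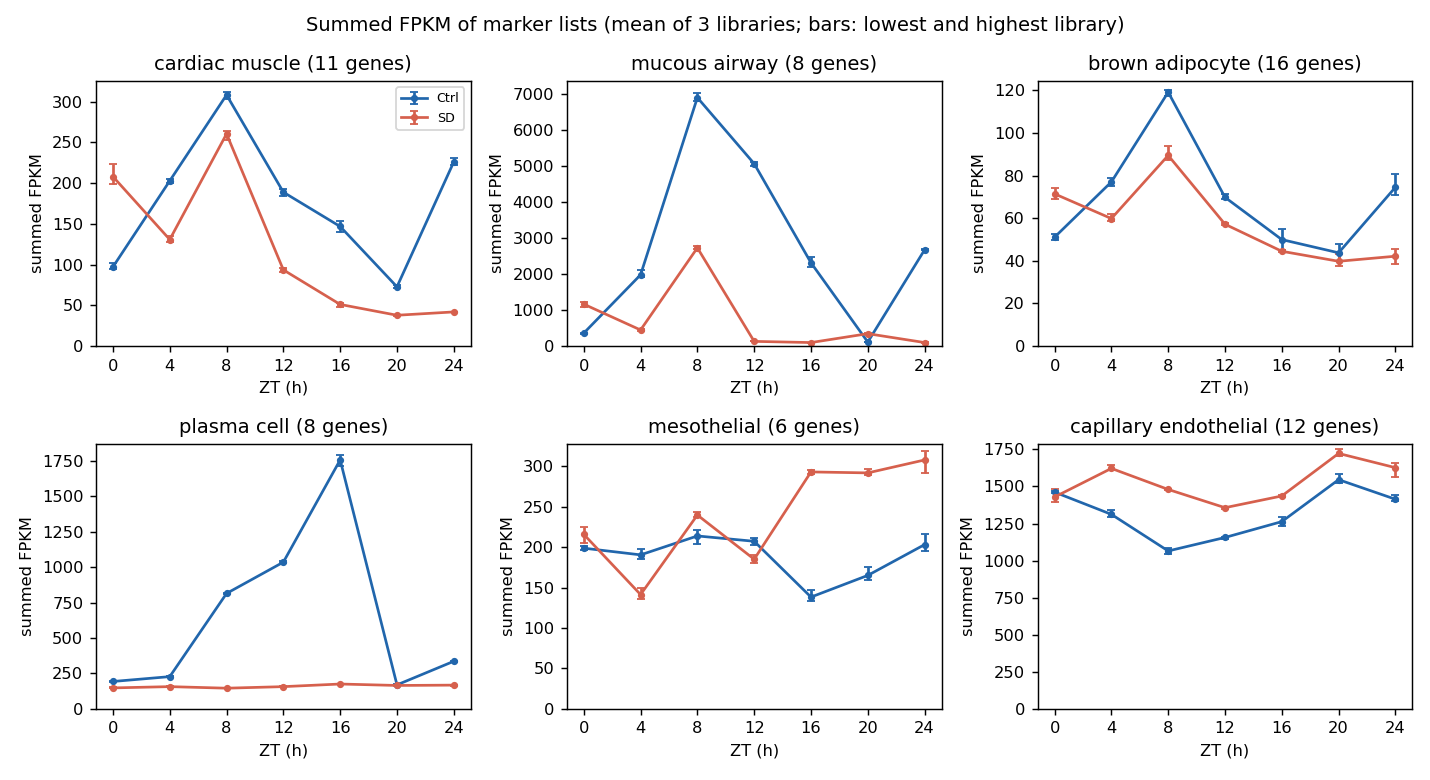
Summed FPKM of 6 marker lists (vertical axes, linear from 0) against time in h (horizontal axes), as means of 3 libraries with bars from the lowest to the highest library, Ctrl in blue and SD in red. The cardiac muscle and brown adipocyte sums peak at ZT8 in both conditions and rise again at ZT24 in Ctrl, as Adipoq does, the mucous airway sum is highest in Ctrl ZT8 (6903 FPKM), and the mesothelial sum is highest in SD ZT24 (308 FPKM). Most of the brown adipocyte sum in Ctrl ZT8 (119 FPKM) is Fabp3 (36.2), Cox8b (29.2) and Cox7a1 (21.5), genes also of muscle, while Ucp1 reads 2.35 FPKM there. In the mesothelial list, Krt19 has the highest mean and is itself highest in SD ZT20.

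Scd1 stood beside other genes. Over the 14 groups its r with 13 clock genes ran from -0.856 for Tef, a clock output gene, to 0.604, and that with Nr1d2, a repressor in the clock, was -0.778. With the 10 alveolar type 2 genes its r ran from -0.409 for Sftpd, a surfactant protein gene, to 0.800 for Lamp3, a lamellar body gene, with a median of 0.264. Its r with the 10 cardiac muscle genes ran from -0.211 to 0.292. The alveolar type 2 sum ran from 18860 FPKM in Ctrl ZT8 to 27380 in SD ZT24. Most of it was Sftpc, with 15580 and 22710 FPKM in those groups. Scd1 had a 4.86-fold range, and the part of alveolar type 2 cells in it was not tested.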

How the data were processed

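RNA-seq of mouse lung was analysed as 1 table of FPKM values for 54532 genes in 42 libraries. The FPKM values were computed and scaled by the authors and deposited as such; per the submitters' processing notes reads were aligned with HISAT2 2.0.5 to mm10 and counted with featureCounts 1.5.0-p3, with settings and strandedness not given in the sources used here. Total RNA (1.5 ug, TRIzol) went into NEBNext Ultra libraries, per the labels' protocols. FPKM times gene length is a whole multiple of a library's step for at least 99.94% of values (within 0.1), which gave the depth of each library; the steps track median-of-ratios size factors, so the deposited values are scaled by those and not by total reads. The recovered reads gave depth, the reads behind each member and the comparison of libraries within a group; no test between groups used them, since the unit is FPKM.

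Values were tested on log2(FPKM + 1) for 16962 genes with a mean of at least 0.5 FPKM, with limma 3.58.1 in R 4.3.3 (14 group means, spread shared over all groups, trend in the prior variance) and Benjamini-Hochberg adjustment over all of them; the fit was tested on simulated data. Members were named by their symbols, list genes by counts, and for each member the 5 most similar genes. The members and lists were chosen with earlier results of these data known. Coordinates are those of the deposited table (mm10), transcripts those of GENCODE M21, promoters RefSeq (GRCm38.p6). Tusc5 in the table is Trarg1. No 2 libraries of a group agreed within sampling noise (chi-square per degree of freedom 1.90 to 19.4 over 42 pairs). Replicate numbers did not pair the libraries.

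Alternatives were another pseudocount, no filter, other scalings, array weights, a replicate block, other sets of times, fits on 6 libraries, a 24 h cosine and leaving out each library.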

Additional observations from a re-analysis of the deposited data

Results flagged for a closer look

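For all 8 members the difference between SD and Ctrl varied with time by limma's F test over the 7 times, and this is what marks them for a closer look, though 81.7% of genes tested did so too. The F values were 736 for Scd1, 418 for Cfd, 195 for Car3, 160 for Fabp4, 57.4 for Cidec, 55.5 for Retn, 51.9 for Plin1 and 30.8 for Adipoq, with adjusted p from 4.41e-29 to 6.68e-11 in limma. The lowest SD minus Ctrl value came at ZT20 for Scd1, at ZT16 for Cidec and at ZT24 for the other 6.

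The change from ZT0 to ZT24, a day apart at 1 clock hour, also differed between SD and Ctrl for all 8 members. Whether SD mice were in the cages at either collection is not stated. The SD minus Ctrl values on the log2 scale were -4.17 for Cfd, -3.57 for Car3, -2.51 for Fabp4, -2.31 for Retn, -1.98 for Adipoq, -1.46 for Plin1 and -0.87 for Cidec. For Scd1 the value was 0.17, with a rise in both conditions. The summed cardiac muscle and mucous airway genes moved the same way as the negative members, and their part was not tested.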

How the results depend on the processing

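The counts of called members stayed within 1.5 times the main count in every comparison and alternative except these. For the difference averaged over the 7 times, 8 members were called, but 5 without ZT24, 5 with ZT0, ZT4 and ZT20 alone, 5 without ZT8 and ZT24 (added after the data were seen) and 0 with the 7 differences of group means as units, where calls over all genes fell from 11857 to 2875. For differences between times in SD, 8 became 5 with a 24 h cosine, Scd1, Cidec and Fabp4 not being called, and calls over all genes fell from 13700 to 1560. The direction of the averaged difference turned for Fabp4 without ZT24 (0.026), and with ZT0, ZT4 and ZT20 alone for Cfd (0.076), Plin1 (0.12, adjusted p 0.0315), Retn (0.12) and Fabp4 (0.56, adjusted p 2.15e-08 in limma). The cause was not tested. Leaving out each library in turn gave counts from 8 to 8 for the average, 3 to 4 at ZT4, 5 to 7 at ZT8, 5 to 6 at ZT20 and 7 to 8 at ZT24. The replicate block gave the same counts as the fit without it, 8 for the average and 8 at ZT24, and libraries with the same number did not deviate together (r from -0.0489 to 0.0803, 0 of 21 pairs over 0.1), while 8 of 21 pairs correlated best with their own number. Single calls that changed elsewhere were Plin1 at ZT0 with the 6 libraries of that time only (adjusted p 0.0731), Adipoq at ZT8 and Retn at ZT20 with a pseudocount of 0.1 (0.183 and 0.0254), Adipoq at ZT20 and Cidec at ZT24 with no filter (0.0511 and 0.0754) and Cidec for ZT24 against ZT0 in SD with array weights (0.0704), all in limma. Adipoq, Plin1 and Retn hold as few as 1, 10 and 6 reads in a library, so counting error limits the order of their low groups.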
